A study of Mus musculus with 21 samples.

Results

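Antigen presentation was followed through 34 genes, 26 of the MHC class I pathway and 8 of the class II pathway, among the 55536 genes of a count table from mouse mammary organoids. The members came from a list of symbols that was matched to the Ensembl gene IDs of the table through the GENCODE vM21 annotation. No measured value entered that rule, but the list was chosen with earlier results of these data known. The organoids, small three-dimensional cultures of primary mammary cells labelled as mammary epithelia, were either WT or Mre11ATLD1/ATLD1 (ATLD here). ATLD is a homozygous mutation of Mre11, a nuclease that works with Rad50 and Nbs1 at broken DNA. Both genotypes were sampled at day 0, day 14 and day 28 of activation of neuT, an oncogenic Erbb2 receptor tyrosine kinase, and the 6 groups held 3 libraries each. For WT, replicate 1 was sequenced again at every day together with the ATLD samples, which gave 3 further libraries. The sources used here do not give the driver of neuT, the mouse strain, the ages of the mice or whether replicates came from separate animals. The p-values therefore measure a spread between libraries that may be technical.

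MHC class I molecules pair a heavy chain with beta-2 microglobulin and show peptides from inside the cell to cytotoxic T cells. The proteasome cuts those peptides, with some subunits exchanged for those of the immunoproteasome after interferon, the TAP transporter carries them into the endoplasmic reticulum, and a loading complex fits them into the heavy chain. Class II molecules are pairs of an alpha and a beta chain that assemble on the invariant chain Cd74, receive peptides in the endosome with the help of H2-DM, and show them to helper T cells. Class II is best known from dendritic cells, macrophages and B cells, where the coactivator Ciita switches it on, but epithelial cells can be induced to make it by interferon gamma.

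Libraries held 30905703 to 50879106 counts in the original WT runs, 46532851 to 48887808 in the resequenced runs and 46331204 to 51757203 in ATLD. Mre11a, the mutated gene, was at 42.8 to 58.9 CPM (counts per 1e+06 counts, after TMM scaling) in the 9 original WT libraries and at 14.3 to 17.6 CPM in the 9 ATLD libraries. Markers of mammary epithelium such as Epcam and Krt8 were high throughout, with 4541 to 11460 CPM summed over 7 genes in the original WT libraries and 6351 to 9140 CPM in ATLD. Some markers of other cell types stood apart by run. Sftpc, a surfactant gene of the lung, was at 4.13 to 10.6 CPM in the original WT libraries, 0.174 to 0.511 CPM in the resequenced ones and 0 to 0.152 CPM in ATLD. Lyz2, a macrophage gene, was at 4.26 to 9.1, 0.0201 to 0.0393 and 0 to 0.0698 CPM in the same order. Other lung and macrophage genes did not all follow. The lung gene Ager was at 1.09 to 2.08, 1.24 to 2.28 and 0.324 to 0.812 CPM in that order. Sftpd was at 0.209 to 2.25, 0.0403 to 2.18 and 6.31 to 17.1 CPM. The macrophage gene Cd68 was at 1.72 to 2.65, 1.95 to 2.83 and 2.18 to 3.26 CPM. In WT day 14 replicates 1 and 3 and WT day 28 replicate 2, GC-rich genes had lower counts. For this, the log2 level of each gene was taken relative to the mean of its group, with the resequenced run in the group. The median over GC-rich genes minus that over GC-poor genes was -0.63, -0.61 and -0.72 there, against 0.17 to 0.68 in the 5 other WT libraries of those days. Because of the shared mean, low values in some libraries of a day raise those of the others. Of the 34 members, 20 lay lower in all of those 3 libraries than in each of the 5 others, 5 lay higher and 9 overlapped. The 3 libraries were set apart by a trend over all genes, and the same count over all genes was not made. H2-K1 was at 236 to 272 CPM in the 3 and at 369 to 448 CPM in the 5, and Erap1 at 191 to 210 and at 140.3 to 152 CPM. The culture of WT day 14 replicate 1 gave 236 CPM of H2-K1 in its original run and 382 CPM in its resequenced run.

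Most members lie together: 19 of the 34 are on chromosome 17, in the mouse MHC. Sequence upstream of the RNA start is shown for 4 class I genes whose levels are compared below, and for the class II alpha chain gene H2-Aa, to show the short letter patterns known from MHC promoters. The stretches hold the 180 bases before the start, from RefSeq on GRCm38.p6, and were taken where the RefSeq start lies within 5 bases of the annotated end of the gene. Capitals mark GAAANNGAA, the core of the interferon-stimulated response element, ATTGG, the inverted CCAAT letters of the Y box, and GGGGATTCC, the kappa B-like letters of the class I enhancer A. Each was searched on both strands, so that the reverse complement of ATTGG is in capitals too.
B2m (chr2:122147507-122147686, plus strand): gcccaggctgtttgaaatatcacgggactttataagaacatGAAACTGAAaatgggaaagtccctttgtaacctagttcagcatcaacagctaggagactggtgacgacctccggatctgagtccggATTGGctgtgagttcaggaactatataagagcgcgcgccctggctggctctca
H2-K1 (chr17:34000348-34000527, minus strand): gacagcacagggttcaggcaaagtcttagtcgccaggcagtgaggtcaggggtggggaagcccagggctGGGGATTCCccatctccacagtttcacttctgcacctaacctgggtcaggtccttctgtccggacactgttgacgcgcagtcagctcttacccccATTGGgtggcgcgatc
H2-Q6 (chr17:35424670-35424849, plus strand): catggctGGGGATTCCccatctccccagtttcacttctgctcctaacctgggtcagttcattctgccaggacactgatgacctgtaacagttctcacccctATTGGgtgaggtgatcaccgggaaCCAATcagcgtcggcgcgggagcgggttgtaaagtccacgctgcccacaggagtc
H2-Q7 (chr17:35438975-35439154, plus strand): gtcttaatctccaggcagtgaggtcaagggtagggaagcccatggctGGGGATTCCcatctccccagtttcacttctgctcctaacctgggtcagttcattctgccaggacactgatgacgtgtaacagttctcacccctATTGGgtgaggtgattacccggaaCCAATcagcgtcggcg
H2-Aa (chr17:34287824-34288003, minus strand): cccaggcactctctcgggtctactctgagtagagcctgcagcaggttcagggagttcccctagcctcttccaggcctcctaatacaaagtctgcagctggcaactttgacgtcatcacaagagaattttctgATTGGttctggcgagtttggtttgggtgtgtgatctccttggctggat
All 5 stretches hold ATTGG, the 3 heavy chain genes hold GGGGATTCC, and B2m holds GAAANNGAA. Other spellings of these elements were not searched, so lower case letters do not show that an element is absent. RefSeq windows of 250 bases before to 50 bases after the start were found for 26 of the 34 members. In these windows GGGGATTCC occurred in 4 members, H2-K1, H2-D1, H2-Q6 and H2-Q7, and in 0.25% of all 32851 windows. ATTGG occurred in 19 members and in 37.4% of all windows. GAAANNGAA occurred in 5 members (B2m, H2-T22, H2-T23, Psme1 and Erap1) and in 8.56% of all windows. TTCNNNGAA, the letters of the interferon gamma activated site, occurred in H2-M3 and Psmb8 and in 8.3% of all windows. These matches describe letters and no binding was measured.

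Levels differed widely within each class. Per length, in RPKM (CPM divided by the gene length in kilobases), the highest member in WT at day 0 was Calr at 369 ± 3.36 RPKM, followed by Pdia3 at 362 ± 17.5 and B2m at 348 ± 12.2 (SD, n = 3), and neighbours in this order overlapped in their spreads. H2-K1 and H2-D1 stood at 130.3 ± 9.99 and 125 ± 12.8 RPKM, and their spreads overlapped. The lowest class I members included H2-Q7 at 0.521 ± 0.0606 RPKM, Nlrc5 at 0.71 ± 0.0963, H2-Q6 at 1.61 ± 0.0857 and Psmb9 at 2.32 ± 0.324. The class II chains were at 0.449 ± 0.0427 RPKM for H2-Ab1, 0.246 ± 0.0837 for H2-Eb1 and 0.0863 ± 0.0267 for H2-Aa, and Cd74 at 1.53 ± 0.242. In ATLD at day 14 B2m was the highest member, at 1993 ± 337 RPKM, above Calr at 520.4 ± 14.8. Among the class II members only Ifi30, a thiol reductase of the lysosome, and H2-DMb1 were above 3 RPKM in WT at day 0, at 36.2 ± 3.6 and 5.01 ± 0.353 RPKM. All 34 members passed the filter on low counts.

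The comparison of ATLD with WT asks how the genotypes differ at each day. At day 0 the ATLD organoids held more RNA of the class I light chain, of both classical heavy chains, of most immunoproteasome genes and of part of the loading complex. B2m had a mean of 299.5 ± 10.5 CPM in WT against 947 ± 131 CPM in ATLD (SD, n = 3). H2-K1 had means of 383 ± 29.3 and 928 ± 20.1 CPM. Of the 26 class I members 15 were called higher and 2 lower in ATLD, and of the 8 class II members 2 were called higher and 0 lower (edgeR, adjusted p under 0.05). Over all genes tested, 26.1% were called higher and 29.5% lower. The median log2 difference was 0.58 in class I, 0.58 in class II and -0.04 over all genes. At day 14, 16 class I members were called higher and 4 lower, and in class II 2 higher and 4 lower, where 30.1% and 35.0% of all genes were called. The class medians parted there, at 0.75 in class I and -0.52 in class II, with -0.07 over all genes. At day 28, 11 class I members were called higher and 5 lower and 2 class II members each way, with 29.3% and 34.9% of all genes called, and the medians were 0.29, -0.07 and -0.05. For the batch term these tests use the 3 WT cultures with runs in both batches. The second batch alone holds 1 WT library a day, so that its spread comes from the ATLD libraries and the lone WT library is assumed to vary like them. There 21, 24 and 20 members were called at day 0, day 14 and day 28, against 19, 26 and 20, where 8346, 10697 and 10390 of 19259 genes were called.

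**Figure D1:**
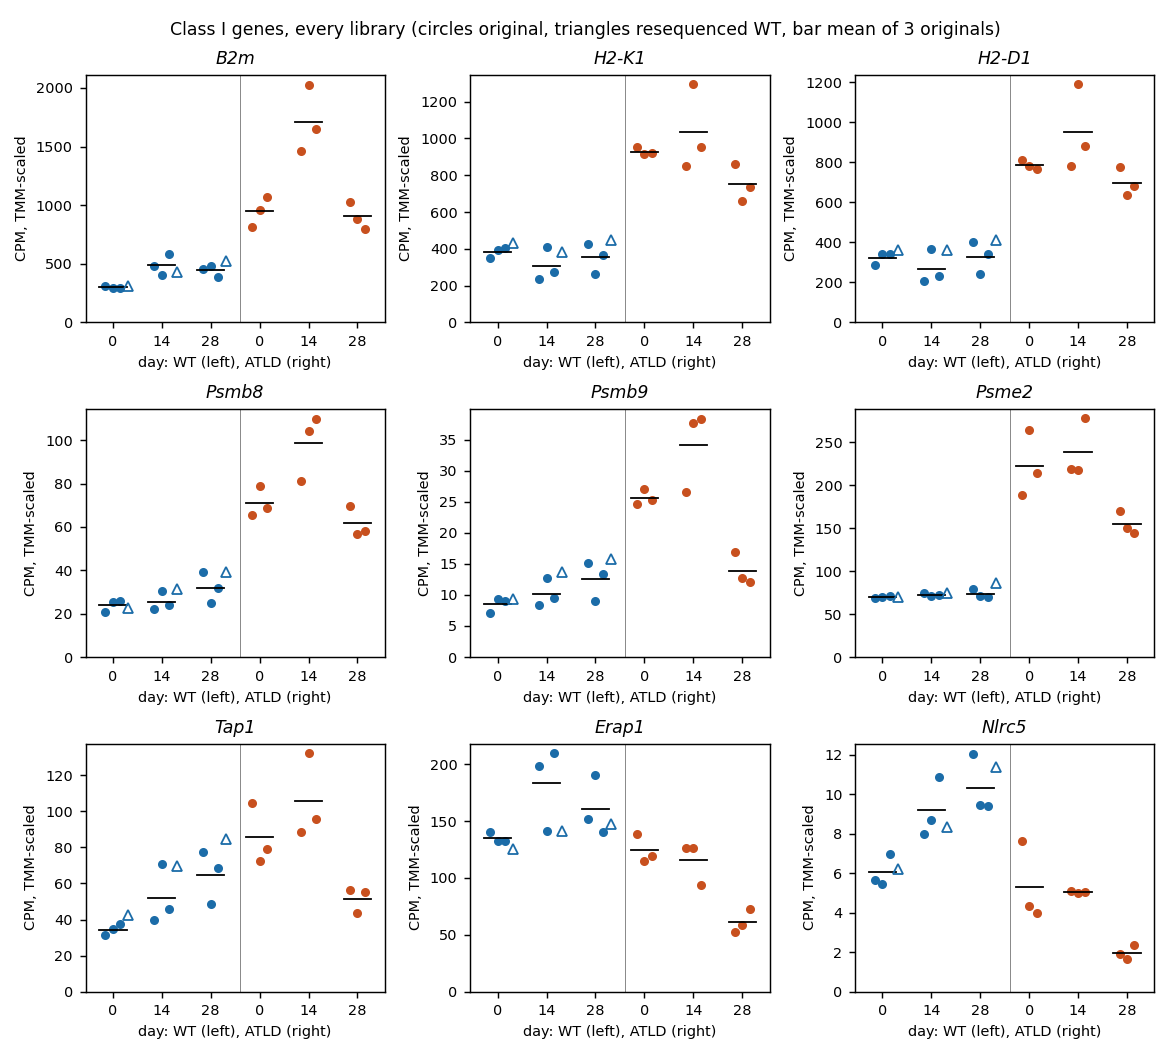
Level of 9 class I genes in every library. The vertical axis of each panel is CPM after TMM scaling and the horizontal axis the day in WT (left, blue) and ATLD (right, orange). Circles are original libraries, triangles resequenced WT runs and bars the mean of 3 originals. B2m, H2-K1, H2-D1, Psmb8 and Psme2 were higher in all ATLD libraries than in all WT libraries, while Nlrc5 was lowest in ATLD at day 28, at 1.65 to 2.34 CPM.

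B2m (ENSMUSG00000060802, chromosome 2, 122147686 to 122153083 on mm10), the light chain of all class I complexes, was at 311, 291 and 296 CPM in the WT libraries of day 0, at 482, 408 and 585 CPM at day 14 and at 457, 483 and 389.6 CPM at day 28. In ATLD B2m was at 812, 956 and 1073 CPM at day 0, 1459, 2028 and 1654 CPM at day 14 and 1028, 885 and 801 CPM at day 28. Here and below, values of replicates 1, 2 and 3 are given for day 0, day 14 and day 28 in turn. Every ATLD library of B2m was above every WT library, and within ATLD day 14 was above both other days. The resequenced WT runs held 308, 433 and 526 CPM, within or near the range of the original WT libraries. The ATLD over WT log2 difference of B2m was 1.59 ± 0.17 (adjusted p = 6.72e-07) at day 0, 1.73 ± 0.17 (adjusted p = 8.93e-08) at day 14 and 0.88 ± 0.17 (adjusted p = 1.64e-04) at day 28. For log2 differences and changes ± gives the SE from the fit, and for CPM, RPKM, shares and ratios the SD between libraries.

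H2-K1 (ENSMUSG00000061232, chromosome 17, 33996017 to 34000347), one of the classical heavy chains that present peptide to cytotoxic T cells, was at 350.0, 392 and 406 CPM in WT at day 0, 236, 410.2 and 272 CPM at day 14 and 427, 264 and 369 CPM at day 28. Its ATLD libraries held 951, 913 and 919 CPM, 849, 1294 and 955 CPM and 863, 661 and 734 CPM at these days. The genotypes did not overlap, and the lowest WT values were those of the 3 libraries with low counts of GC-rich genes. H2-D1 (ENSMUSG00000073411, chromosome 17, 35262730 to 35267499), the other classical heavy chain, was at 285, 340.5 and 344 CPM, 208, 365 and 230.0 CPM and 402, 240.5 and 343 CPM in WT at the 3 days. Its ATLD libraries held 811, 779 and 767 CPM, 783, 1189 and 883 CPM and 775, 637 and 683 CPM. It followed H2-K1 in every group, again with no overlap of the genotypes. The ATLD over WT difference of H2-K1 was 0.99 ± 0.22 (adjusted p = 9.18e-04), 1.38 ± 0.22 (adjusted p = 2.49e-05) and 0.74 ± 0.22 (adjusted p = 0.00591) at day 0, day 14 and day 28, and that of H2-D1 was 0.98 ± 0.23, 1.40 ± 0.23 and 0.72 ± 0.22. Neither gene passed the test in any comparison of days. Heavy chain genes are near copies of each other, so reads can be split between them in counting, and the values of single H2-Q, H2-T, H2-K1 and H2-D1 genes are uncertain to that extent. Without a stated strand setting the same holds for members that overlap a gene on the opposite strand. Psmb9 and Tap1 share 212 exon bases. Larger parts of the exon bases were shared in H2-T22 (29.4%), Tapbp (24.9%), H2-Q4 (19.1%), Psmb8 (14.7%) and Tap2 (14.1%), with noncoding genes. Erap1 shared 11.5% with Cast and H2-DMa 10.4% with Brd2, both protein-coding genes.

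Psmb8, Psme1 and Psme2 were called higher in ATLD at each day and Psmb9 at day 0 and day 14, and so were most of the other proteasome genes examined. Psmb8 (ENSMUSG00000024338), a catalytic subunit of the immunoproteasome, was at 20.7, 25.3 and 26 CPM in WT at day 0, 21.9, 30.4 and 23.9 CPM at day 14 and 39.1, 24.8 and 32 CPM at day 28. In ATLD Psmb8 was at 65.4, 79 and 68.8 CPM, 81.2, 104 and 109.9 CPM and 69.8, 56.9 and 58.3 CPM. No ATLD library of Psmb8 overlapped a WT library. Psmb9, the neighbouring catalytic subunit, was at 7.13, 9.34 and 8.98 CPM, 8.45, 12.7 and 9.45 CPM and 15.2, 9.06 and 13.4 CPM in WT. In ATLD Psmb9 was at 24.7, 27.1 and 25.2 CPM, 26.5, 37.7 and 38.4 CPM and 16.9, 12.7 and 12.1 CPM. The genotypes overlapped for Psmb9 at day 28 only. Psme2, a subunit of the PA28 activator, was at 68.9, 69.9 and 71.5 CPM, 74.1, 71.4 and 72.7 CPM and 78.9, 70.9 and 69.9 CPM in WT. In ATLD Psme2 was at 189, 265 and 214 CPM, 219.6, 218 and 278 CPM and 170.3, 149.8 and 144 CPM. The WT libraries of Psme2 hardly differed from each other, and all lay below ATLD. Psme1, its partner, had group means of 79.9 ± 4.06, 94.5 ± 13.3 and 91.5 ± 9.02 CPM in WT. ATLD means of Psme1 were 219 ± 31.3, 257 ± 37.5 and 201 ± 26.6 CPM.

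The ATLD over WT log2 differences at day 0, day 14 and day 28 were 1.42 ± 0.19, 1.66 ± 0.19 and 0.69 ± 0.19 for Psmb8, and all passed the test. For Psmb9 they were 1.31 ± 0.22 (adjusted p = 8.02e-05), 1.33 ± 0.22 (adjusted p = 3.53e-05) and -0.22 ± 0.22 (adjusted p = 0.39). For Psme2 they were 1.58 ± 0.14, 1.56 ± 0.14 and 0.90 ± 0.13 and for Psme1 1.27 ± 0.15, 1.20 ± 0.15 and 0.91 ± 0.15, all past the test. Psmb10, the remaining catalytic subunit, had group means of 13.9 ± 3.12, 13.2 ± 9.81 and 17 ± 6.83 CPM in WT. ATLD means of Psmb10 were 39.1 ± 5.98, 37.3 ± 9.17 and 32.9 ± 7.25 CPM. Psmb10 passed no test in edgeR, although every original WT library was below every ATLD library, and DESeq2 called it between the genotypes at day 0. It was at 7.34 to 9.17 CPM in the 3 WT libraries with low counts of GC-rich genes and at 20.2 to 24.6 CPM in the 5 others of those days. All 7 genes of the proteasome alpha ring were also called higher in ATLD at each day, with a median of 1.26 at day 0, 1.24 at day 14 and 0.91 at day 28, and 4 of 5 constitutive partners were (Psmb5, Psmb6, Psmb7 and Psme3), while Psme4 was not called. Of all genes tested, 26.1%, 30.1% and 29.3% were called higher at these days. Psmb8 made up 14.9% ± 0.442 of the summed RPKM of Psmb8 and Psmb5, the constitutive subunit it replaces, in WT at day 0 and 15% ± 1.27 in ATLD (SD, n = 3). At day 14 this share was 20% ± 4.53 in WT and 19.2% ± 1.67 in ATLD, and at day 28 18.9% ± 1.55 and 13.1% ± 0.488. The share of Psmb9 in the sum with Psmb6 was 3.73% ± 0.115 in WT and 4.19% ± 0.653 in ATLD at day 0 and 5.65% ± 0.82 and 4.95% ± 0.877 at day 14. At day 28 it was 5.7% ± 0.388 and 2.42% ± 0.238, with every WT library above every ATLD library. Psmb10 in the sum with Psmb7 did not follow, at 23.4% ± 4.57 and 32.7% ± 4.99, 21.4% ± 14.2 and 29.8% ± 4.11, and 28.8% ± 10.7 and 29.6% ± 3.51. Resequenced WT runs of all days held 12.45% to 17.15% for Psmb8, 3.82% to 5.515% for Psmb9 and 34.2% to 38.6% for Psmb10. These shares were not tested.

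**Figure D2:**
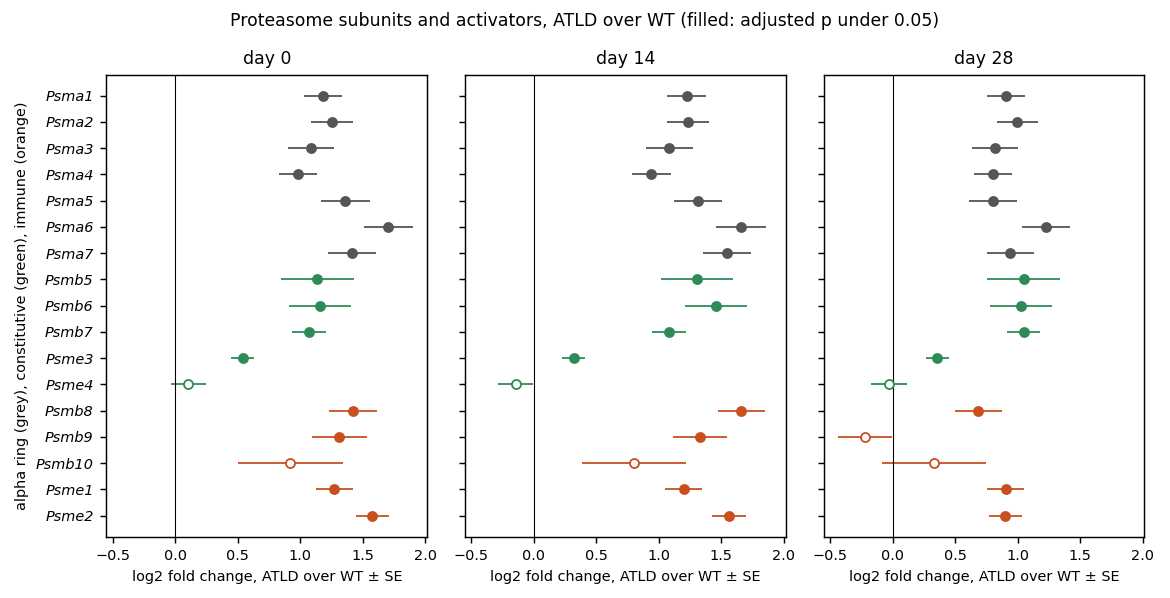
Log2 fold changes, ATLD over WT, with SE for proteasome genes at day 0, day 14 and day 28. The horizontal axis is the log2 fold change and rows are genes of the alpha ring (grey), constitutive catalytic and activator genes (green) and immunoproteasome and PA28 genes (orange), filled where called. Psmb8 and Psme2 lay among the alpha ring genes at day 0, and Psmb9 was at -0.22 at day 28 where all alpha ring genes were above 0.8.

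Of the transport and loading genes, Tapbp and Calr were higher in ATLD at each day, and the direction turned with the day for Tap1. Tap1 (ENSMUSG00000037321, chromosome 17, 34187553 to 34197225), a subunit of the peptide transporter, was at 31.2, 34.6 and 37.4 CPM in WT at day 0, 39.8, 70.8 and 45.8 CPM at day 14 and 77.7, 48.5 and 68.7 CPM at day 28. In ATLD Tap1 was at 105, 72.8 and 79.1 CPM, 88.7, 133 and 96 CPM and 56.4, 43.5 and 55 CPM. ATLD was above WT without overlap at day 0 and day 14, and the groups overlapped at day 28. The ATLD over WT difference was 0.94 ± 0.24 (adjusted p = 0.00288) at day 0, 0.55 ± 0.23 (adjusted p = 0.0458) at day 14 and -0.76 ± 0.23 (adjusted p = 0.0083) at day 28. The day 14 call was lost without WT day 14 replicate 1 (adjusted p = 0.075), WT day 14 replicate 3 (adjusted p = 0.0725) or ATLD day 14 replicate 2 (adjusted p = 0.204), and within the second batch alone (adjusted p = 0.0774). The day 28 call was lost without the batch term, where the difference was -0.38 (adjusted p = 0.139). Tap2, its partner, had group means of 39.1 ± 6.13, 38.5 ± 19 and 56.9 ± 19.8 CPM in WT. ATLD means of Tap2 were 73.4 ± 8.94, 80.1 ± 16.2 and 62 ± 10.7 CPM, and Tap2 passed no test in edgeR.

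Tapbp, the tapasin that bridges TAP and heavy chain, had means of 151 ± 14.2, 164 ± 37 and 184 ± 33.3 CPM in WT. ATLD means of Tapbp were 303 ± 25.8, 344 ± 59.6 and 336 ± 43.8 CPM, with differences of 0.72 ± 0.18, 0.71 ± 0.18 and 0.56 ± 0.18 that all passed. Tapbpl, a tapasin relative that edits peptides, had means of 33 ± 1.96, 35.9 ± 6.49 and 41.2 ± 5.81 CPM in WT. ATLD means of Tapbpl were 54.9 ± 1.2, 55.3 ± 6.06 and 45.5 ± 1.05 CPM, and the gene was called higher in ATLD at day 0 (0.45 ± 0.14, adjusted p = 0.00857). Calr, calreticulin, a chaperone of the loading complex, was at 1060.0, 1072 and 1053 CPM in WT at day 0, 779, 779.6 and 764 CPM at day 14 and 731, 749.7 and 745 CPM at day 28. Its ATLD libraries held 1270.0, 1310.0 and 1386 CPM, 1500.0, 1540.0 and 1455 CPM and 1236, 1205 and 1281 CPM, above WT at every day. The difference of Calr was 0.26 ± 0.08 (adjusted p = 0.0116) at day 0, 0.85 ± 0.08 (adjusted p = 4.15e-08) at day 14 and 0.65 ± 0.08 (adjusted p = 1.35e-06) at day 28. Pdia3, the disulfide isomerase ERp57, had means of 1135 ± 55, 980.1 ± 179 and 810.5 ± 119.7 CPM in WT. ATLD means of Pdia3 were 1253 ± 76.8, 1393 ± 83.4 and 1154 ± 17.2 CPM, and the gene was called higher in ATLD at day 14 (0.66 ± 0.14) and day 28 (0.62 ± 0.14). Canx, calnexin, had means of 660.0 ± 29.8, 753 ± 129 and 633 ± 81.2 CPM in WT. ATLD means of Canx were 711 ± 39.7, 688 ± 65.7 and 487 ± 36.5 CPM, and edgeR did not call the gene between the genotypes, while DESeq2 called it at day 28.

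Nonclassical heavy chains, which mostly carry few kinds of peptide, went both ways. H2-Q6 was at 3.15, 3.46 and 3.45 CPM in WT at day 0, 1.96, 2.1 and 3.1 CPM at day 14 and 3.33, 2.68 and 2.67 CPM at day 28. In ATLD H2-Q6 was at 8.09, 6.82 and 6.89 CPM, 6.42, 12.1 and 7.58 CPM and 3.26, 2.59 and 2.15 CPM. H2-Q7 was at 1.93, 2.42 and 2.31 CPM, 1.22, 4.27 and 2.0 CPM and 4.91, 1.96 and 4.01 CPM in WT. In ATLD H2-Q7 was at 7.85, 7.23 and 5.66 CPM, 5.36, 11.3 and 8.62 CPM and 3.6, 2.59 and 2.37 CPM. Both were above WT in every ATLD library of day 0 and day 14, and the genotypes overlapped at day 28. H2-Q4 was at 33.3, 36.8 and 41.4 CPM, 32.4, 41.7 and 37.8 CPM and 49.3, 36.6 and 41.4 CPM in WT. In ATLD H2-Q4 was at 65.2, 52.5 and 56.2 CPM, 58.3, 80.9 and 60.9 CPM and 43.4, 33.7 and 39.4 CPM, again with overlap at day 28 only. The ATLD over WT difference was 1.05 ± 0.25 and 1.86 ± 0.26 for H2-Q6, 1.12 ± 0.41 (adjusted p = 0.0262) and 1.10 ± 0.40 (adjusted p = 0.0215) for H2-Q7, and 0.45 ± 0.16 (adjusted p = 0.0247) and 0.62 ± 0.16 (adjusted p = 0.00292) for H2-Q4 at day 0 and day 14, and none of these genes passed in edgeR at day 28, where DESeq2 called H2-Q4 and H2-Q7. The day 0 calls were lost without ATLD day 0 replicate 1 for H2-Q4 (adjusted p = 0.0925) and H2-Q7 (adjusted p = 0.0636), and without ATLD day 0 replicate 2 for H2-Q7 (adjusted p = 0.0547). The day 14 call of H2-Q7 was lost without ATLD day 14 replicate 2 (adjusted p = 0.0966).

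H2-T22, a ligand of some gamma delta T cells, was at 33.1, 35 and 37.6 CPM in WT at day 0, 38.5, 42.4 and 40.9 CPM at day 14 and 50.2, 41.2 and 44 CPM at day 28. In ATLD H2-T22 was at 63.4, 70.5 and 64.7 CPM, 72.9, 94.5 and 90.9 CPM and 71.9, 61.8 and 63.4 CPM. All ATLD libraries were above all WT libraries, and the tested difference was 0.70 ± 0.12 at day 0, 0.80 ± 0.12 at day 14 and, short of the threshold, 0.25 ± 0.12 (adjusted p = 0.0684) at day 28. H2-T24 ran the opposite way, at 7.09, 5.38 and 5.68 CPM, 7.48, 5.68 and 7.9 CPM and 6.43, 7.7 and 7.18 CPM in WT. In ATLD H2-T24 was at 2.68, 1.79 and 1.12 CPM, 2.84, 1.77 and 2.07 CPM and 1.38, 1.3 and 2.63 CPM. Every ATLD library of H2-T24 was below every WT library, with differences of -1.41 ± 0.30, -1.41 ± 0.30 and -1.73 ± 0.30 that all passed. H2-M3, which presents formylated peptides, was at 3.71, 4.49 and 4.87 CPM, 6.69, 7.2 and 6.68 CPM and 8.08, 6.76 and 7.39 CPM in WT. In ATLD H2-M3 was at 3.59, 3.31 and 3.29 CPM, 4.29, 5.65 and 5.71 CPM and 4.34, 4.11 and 4.59 CPM. At each day it was lower in all ATLD libraries than in WT, with differences of -0.58 ± 0.14, -0.67 ± 0.14 and -1.0 ± 0.14 that all passed. H2-T23, the Qa-1 chain read by NK cell receptors, had means of 115 ± 17.2, 137 ± 52.6 and 172 ± 48.8 CPM in WT. ATLD means of H2-T23 were 197 ± 11.9, 286 ± 46.2 and 335 ± 31.8 CPM, and the gene did not pass between the genotypes in edgeR.

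The comparison of days asks how the cultures changed under neuT. No group here holds cultures without neuT at the later days, so that neuT and the days in culture cannot be told apart. In WT, B2m, Tap1, Nlrc5 and H2-M3 rose by day 14 and day 28 while Calr fell. Of the 26 class I members 6 rose and 2 fell at day 14, where 15.2% of all genes rose and 15.1% fell. At day 28 again 6 rose and 2 fell, against 12.3% and 12.4% of all genes. The class I median was 0.18 at day 14 and 0.30 at day 28, and 0.01 and 0.02 over all genes. Between day 14 and day 28 of WT, edgeR called 0 members, where 0.530% of all genes were called higher and 0.375% lower; 3 members (Pdia3, Cd1d1 and Ciita) had an unadjusted p under 0.05, and DESeq2 called 0. Without WT day 14 replicate 2, which held more counts of GC-rich genes than the other original libraries of its day, 11 members were called in that comparison, 8 higher and 3 lower, where 2747 of 19161 genes were called higher and 1070 lower. The WT counts also moved with 1 library elsewhere. Without WT day 0 replicate 1, 7 members of both classes were called at day 14, against 12. Over all genes that fit called 4934 of 19147, against 5666 of 18684. Without WT day 28 replicate 1, 7 members were called at day 28, against 12, and the count over all genes is not given here.

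The WT log2 change of B2m was 0.75 ± 0.15 (adjusted p = 0.0011) at day 14 and 0.60 ± 0.15 (adjusted p = 0.0071) at day 28. Without the 3 libraries with low counts of GC-rich genes, a setting chosen after the data were seen, the day 14 change was 0.45 (adjusted p = 0.0998). Tap1 changed by 0.64 ± 0.22 (adjusted p = 0.0409) and 0.95 ± 0.23 (adjusted p = 0.00411). Its day 14 call was lost without any 1 of the WT day 0 libraries (adjusted p = 0.0639 to 0.113) or without WT day 14 replicate 2 (adjusted p = 0.184). Nlrc5 (ENSMUSG00000074151, chromosome 8, 94434356 to 94527272), the coactivator of class I genes, was at 5.66, 5.47 and 6.97 CPM in WT at day 0, 8.0, 8.7 and 10.9 CPM at day 14 and 12, 9.44 and 9.41 CPM at day 28. Every later WT library was above every day 0 library, with a log2 change of 0.64 ± 0.21 (adjusted p = 0.0317) and 0.80 ± 0.22 (adjusted p = 0.0101). The day 14 call of Nlrc5 was lost without WT day 0 replicate 1 or 2 (adjusted p = 0.0892 and 0.105) or WT day 14 replicate 3 (adjusted p = 0.145), and the day 28 call without WT day 0 replicate 2 (adjusted p = 0.0501) or WT day 28 replicate 1 (adjusted p = 0.0582). H2-M3 rose by 0.69 ± 0.14 and 0.80 ± 0.14, and Calr changed by -0.42 ± 0.08 and -0.48 ± 0.08, in all of these without overlap of the groups.

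Smaller WT changes were held by fewer libraries. Erap1, the peptidase that trims peptides in the endoplasmic reticulum, was at 141, 132 and 132 CPM in WT at day 0, 199, 141 and 210.3 CPM at day 14 and 152, 190.5 and 140.3 CPM at day 28. Its high values were in the 3 libraries with low counts of GC-rich genes. Its day 14 change of 0.48 ± 0.17 (adjusted p = 0.0399) was 0.06 without those libraries, and the call was also lost without any 1 of WT day 0 (adjusted p = 0.0642 to 0.103), WT day 14 replicate 1 (adjusted p = 0.135) or replicate 3 (adjusted p = 0.174). Mr1, a class I-like molecule that presents vitamin B metabolites, was at 39.1, 37.6 and 37.4 CPM, 54.9, 37.8 and 56.6 CPM and 42.3, 49.2 and 37.5 CPM in WT at the 3 days. It showed the same 3 high libraries, and its day 14 change of 0.42 ± 0.14 (adjusted p = 0.0312) went to -0.01 without them. The Mr1 call was lost without any 1 of WT day 0 (adjusted p = 0.0533 to 0.0798), WT day 14 replicate 1 (adjusted p = 0.134) or replicate 3 (adjusted p = 0.152). Cd1d1, a class I-like molecule that presents lipids, was at 25, 22 and 23.9 CPM, 18.8, 15.6 and 19 CPM and 20.9, 22.7 and 20.9 CPM in WT. Its fall at day 14, -0.38 ± 0.12 (adjusted p = 0.0235), was lost without WT day 0 replicate 1 (adjusted p = 0.107) or 3 (adjusted p = 0.0723) or WT day 14 replicate 2 (adjusted p = 0.0661).

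At day 28 of WT, Psmb9 (0.60 ± 0.21, adjusted p = 0.0416), H2-T22 (0.39 ± 0.11, adjusted p = 0.0152) and Pdia3 (-0.45 ± 0.13, adjusted p = 0.0151) were called as well. All lost the call without WT day 28 replicate 1 (adjusted p = 0.196, 0.0864 and 0.0817) and without WT day 0 replicate 1 (adjusted p = 0.167, 0.0686 and 0.0671). Psmb9 also lost it without WT day 0 replicate 2 (adjusted p = 0.0581) or 3 (adjusted p = 0.0751) or WT day 28 replicate 3 (adjusted p = 0.117), and Pdia3 without WT day 28 replicate 3 (adjusted p = 0.0737). H2-T23 did not pass in WT, with a log2 change of 0.61 ± 0.23 (adjusted p = 0.0658) at day 28, which was 0.80 (adjusted p = 3.95e-04) without the 3 libraries and 0.60 (adjusted p = 9.99e-04) with an offset for GC content.

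In ATLD, B2m, H2-M3, H2-T22, Cd1d1 and Mr1 rose by day 14, and most class I calls at day 28 were falls. At day 14, 5 class I members rose and 0 fell, and 0 class II members passed in edgeR (1, H2-DMa, at an unadjusted p under 0.05), where 5.18% of all genes rose and 6.49% fell. At day 28, 3 class I members were above day 0 and 9 below, with 14.1% of all genes higher and 15.7% lower, and against day 14 1 rose and 13 fell, with 8.25% and 9.05% of all genes. The class I medians were 0.22, -0.22 and -0.40 for day 14 against day 0, day 28 against day 0 and day 28 against day 14, and -0.03, -0.02 and -0.01 over all genes. Nlrc5 was at 7.63, 4.34 and 3.96 CPM in ATLD at day 0, 5.11, 5.0 and 5.05 CPM at day 14 and 1.91, 1.65 and 2.34 CPM at day 28. All day 28 libraries of ATLD were below all other libraries of the study, with a change of -1.44 ± 0.23 (adjusted p = 1.46e-04) from day 0. Erap1 in ATLD was at 139, 115 and 119 CPM, 127, 127 and 93.6 CPM and 52.8, 58.5 and 72.4 CPM, lowest at day 28 without overlap, a change of -1.02 ± 0.17 (adjusted p = 1.94e-04).

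Of the ATLD values given above, B2m rose by 0.84 ± 0.15 at day 14 and then fell, with a change of -0.90 ± 0.15 from day 14. From day 0 to day 28 H2-Q6 changed by -1.44 ± 0.23, H2-Q7 by -1.28 ± 0.38 (adjusted p = 0.0184), H2-Q4 by -0.58 ± 0.16 (adjusted p = 0.00976), Psmb9 by -0.89 ± 0.20 (adjusted p = 0.00329), Psme2 by -0.52 ± 0.12, Tap1 by -0.73 ± 0.22 (adjusted p = 0.0206) and Canx by -0.55 ± 0.13 (adjusted p = 0.00394). The calls of H2-Q4 and Tap1 were lost without ATLD day 0 replicate 1 (adjusted p = 0.0507 and 0.109) or ATLD day 28 replicate 2 (adjusted p = 0.0551 and 0.0919), and that of H2-Q7 without either of these or ATLD day 28 replicate 3 (adjusted p = 0.0595 to 0.0661). Against day 14 the falls of H2-Q7, H2-T22, Psmb8, Calr and Canx were each lost without at least 1 library (adjusted p = 0.0503 to 0.13), namely ATLD day 14 replicate 2 for all but Psmb8, and other ATLD libraries of day 14 or day 28 for all but H2-Q7. Psmb8 lost it without ATLD day 14 replicate 3 or ATLD day 28 replicate 2 or 3.

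Class I-like molecules and H2-T23 rose in ATLD over the same days. Cd1d1 was at 18.3, 24.8 and 22.4 CPM in ATLD at day 0, 30.7, 36.4 and 32.6 CPM at day 14 and 46.9, 48 and 40.7 CPM at day 28, each day above the one before without overlap. Its change from day 0 was 0.58 ± 0.12 (adjusted p = 0.00285) at day 14 and 1.05 ± 0.12 (adjusted p = 4.23e-06) at day 28. Mr1 was at 25.6, 30.1 and 30.7 CPM, 44.8, 49.3 and 39.8 CPM and 50.5, 55.7 and 55.6 CPM, again without overlap, and changed by 0.61 ± 0.14 (adjusted p = 0.00753) and 0.91 ± 0.14 (adjusted p = 1.19e-04). H2-T23 changed by 0.77 ± 0.23 (adjusted p = 0.0187) at day 28, a call that was lost without ATLD day 0 replicate 3 (adjusted p = 0.0628) or ATLD day 28 replicate 1 (adjusted p = 0.0675). H2-M3 (0.60 ± 0.14, adjusted p = 0.00757) and H2-T22 (0.36 ± 0.11, adjusted p = 0.0445) rose at day 14, a call of H2-T22 that was lost when ATLD day 0 replicate 1, 2 or 3 or ATLD day 14 replicate 2 or 3 was left out (adjusted p = 0.0592 to 0.188). The further rise of Cd1d1 from day 14 to day 28, 0.47 ± 0.12 (adjusted p = 0.0118), was lost without ATLD day 14 replicate 1 (adjusted p = 0.0599).

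The genotype by time contrast tests whether the change from day 0 differed between ATLD and WT. At day 14, 2 class I members had a higher change in ATLD and 0 a lower one, with 1 higher and 2 lower in class II, where 10.8% and 10.6% of all genes were called. At day 28, 3 class I members had a higher change and 11 a lower one, with 1 and 2 in class II, against 13.5% and 14.0% of all genes. The class I medians were 0.09 and -0.55 at the 2 days and -0.04 and -0.05 over all genes. Nlrc5 showed the largest class I difference at day 28, -2.24 ± 0.32 (adjusted p = 3.24e-05), with 3 WT libraries rising to 9.41 to 12.0 CPM and the ATLD libraries falling to 1.65 to 2.34 CPM. H2-Q7 differed by -2.03 ± 0.55 (adjusted p = 0.0103), Tap1 by -1.68 ± 0.32 (adjusted p = 6.02e-04), Psmb9 by -1.49 ± 0.29 (adjusted p = 7.90e-04), Erap1 by -1.31 ± 0.24 (adjusted p = 4.14e-04) and H2-Q6 by -1.27 ± 0.32 (adjusted p = 0.00665). Lower changes also passed for B2m (-0.66 ± 0.22, adjusted p = 0.029), H2-Q4, Tapbpl, Psme2 and Canx (-0.52 ± 0.18, adjusted p = 0.0416), and those of B2m and Canx were lost when single libraries were left out. For B2m these were WT day 0 replicate 2 or 3, WT day 28 replicate 1 or 2, ATLD day 0 replicate 3 and ATLD day 28 replicate 2 or 3 (adjusted p = 0.0544 to 0.074). For Canx they were all WT and ATLD libraries of day 0, WT day 28 replicate 2 and ATLD day 28 replicate 1 or 2 (adjusted p = 0.0505 to 0.102).

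Higher changes in ATLD passed for Cd1d1, by 0.96 ± 0.17 (adjusted p = 3.73e-04) at day 14 and 1.16 ± 0.17 (adjusted p = 4.68e-05) at day 28. They also passed for Calr, by 0.58 ± 0.11 (adjusted p = 7.92e-04) and 0.39 ± 0.11 (adjusted p = 0.0129), and for Mr1 at day 28, by 0.69 ± 0.20 (adjusted p = 0.0149). The heavy chains H2-K1 and H2-D1 did not pass, at -0.22 ± 0.29 (adjusted p = 0.64) and -0.23 ± 0.30 (adjusted p = 0.633) at day 28. Between the genotypes Nlrc5 was at -0.23 ± 0.23 (adjusted p = 0.399) at day 0, and it was lower in ATLD by day 14 (-0.92 ± 0.23, adjusted p = 0.00168) and day 28 (-2.49 ± 0.24, adjusted p = 4.08e-08), days at which B2m, H2-K1, H2-D1, Psmb8 and Psme2 were higher in ATLD. Erap1 was lower in ATLD at day 14 (-0.50 ± 0.18, adjusted p = 0.0197) and again by day 28 (-1.26 ± 0.18, adjusted p = 6.34e-06), and Cd1d1 higher at both (1.02 ± 0.13 and 1.19 ± 0.13). The day 14 call of Erap1 was lost without ATLD day 14 replicate 3 (adjusted p = 0.0976), within the second batch alone at -0.31 (adjusted p = 0.222) and without the 3 WT libraries with low counts of GC-rich genes at -0.29 (adjusted p = 0.0867). Mr1 was higher in ATLD at day 28 (0.41 ± 0.15, adjusted p = 0.0244), a call lost without ATLD day 28 replicate 2 (adjusted p = 0.0535) or 3 (adjusted p = 0.0564).

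**Figure D3:**
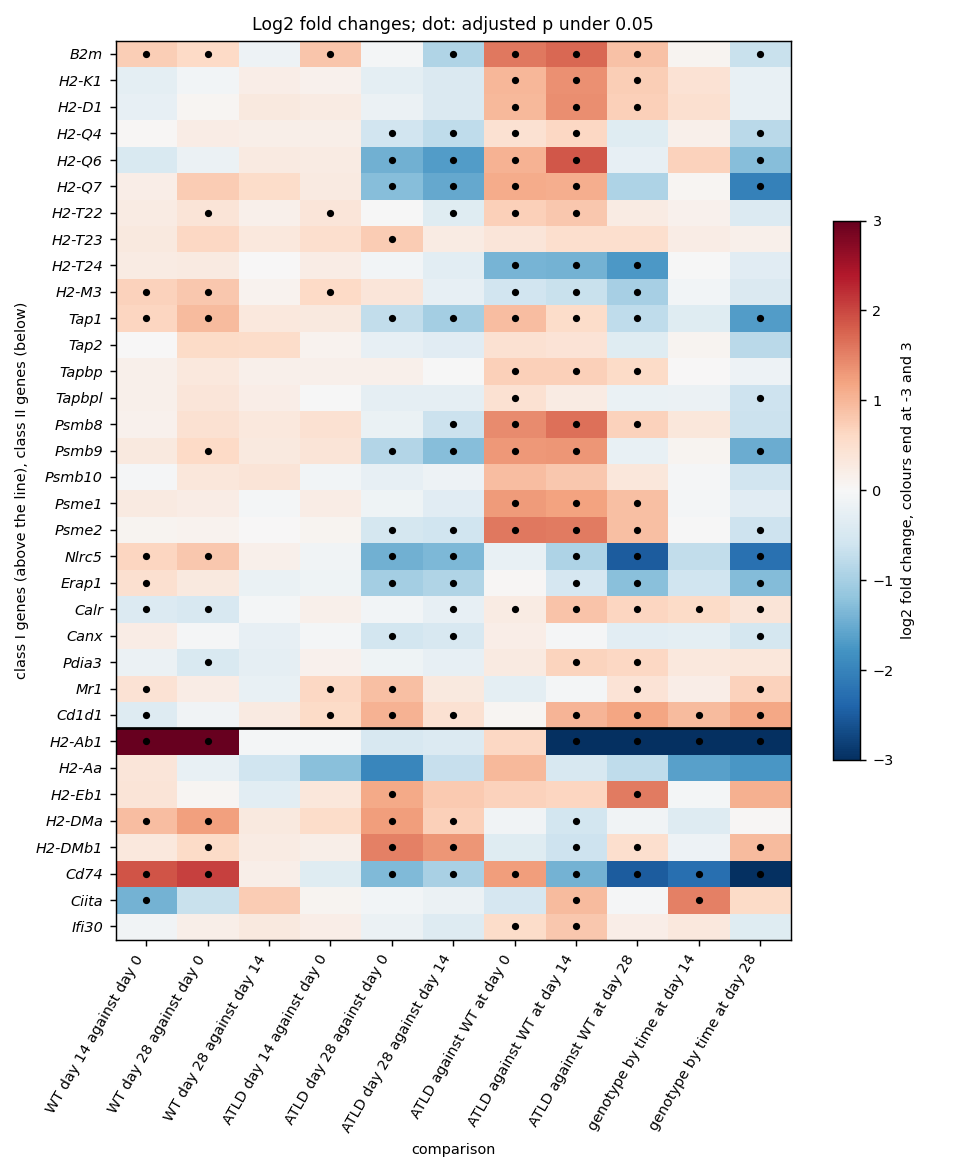
Log2 fold changes of all 34 members (rows, class I above the line and class II below) in the 11 comparisons (columns). Red is higher and blue lower in the group named first, or a higher or lower change in ATLD for genotype by time, with colours ending at -3 and 3, and dots mark an adjusted p under 0.05. H2-Ab1 and Cd74 show the widest class II range, from 3.64 for H2-Ab1 in WT at day 14 to -4.05 for genotype by time at day 28.

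In class II, H2-Ab1 and Cd74 rose in WT and did not rise in ATLD, while the alpha chain H2-Aa was near 0 in all groups. In WT, 3 of the 8 class II members rose and 1 fell at day 14, and 4 rose and 0 fell at day 28, with medians of 0.38 at both days. In ATLD at day 28, 3 were higher and 1 lower than at day 0, and 2 higher and 1 lower than at day 14, with medians of -0.13 and -0.28. The shares of all genes called are those given for class I. H2-Ab1 (ENSMUSG00000073421, chromosome 17, 34257689 to 34269419), the beta chain of the I-A molecule, was at 1.18, 1.03 and 1.25 CPM in WT at day 0, 11.4, 19 and 12 CPM at day 14 and 15.5, 10.5 and 14.7 CPM at day 28. The resequenced runs, where Sftpc and Lyz2 were near 0, held 0.57 CPM, 20.7 CPM and 16.4 CPM at these days, from 29, 1071 and 812 counts. The resequenced runs thus held the lowest day 0 value and the highest day 14 and day 28 values of WT. The WT log2 change was 3.64 ± 0.26 (adjusted p = 5.67e-09) at day 14 and 3.58 ± 0.26 (adjusted p = 9.03e-09) at day 28, and within the second batch alone, from 1 WT library a day, 5.22 and 4.87. In ATLD H2-Ab1 was at 1.79, 1.77 and 1.52 CPM, 1.14, 1.77 and 2.07 CPM and 1.15, 1.0 and 1.51 CPM, and no comparison of days passed. The genotype by time difference was -3.70 ± 0.35 (adjusted p = 4.56e-07) at day 14 and -4.05 ± 0.36 (adjusted p = 1.77e-07) at day 28. The ATLD over WT difference was -3.43 ± 0.31 (adjusted p = 1.78e-08) at day 14 and -3.70 ± 0.32 (adjusted p = 1.03e-08) at day 28, and at day 0 the difference was 0.62 ± 0.34 (adjusted p = 0.132), against 1.58 within the second batch with its lone WT library of that day.

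**Figure D4:**
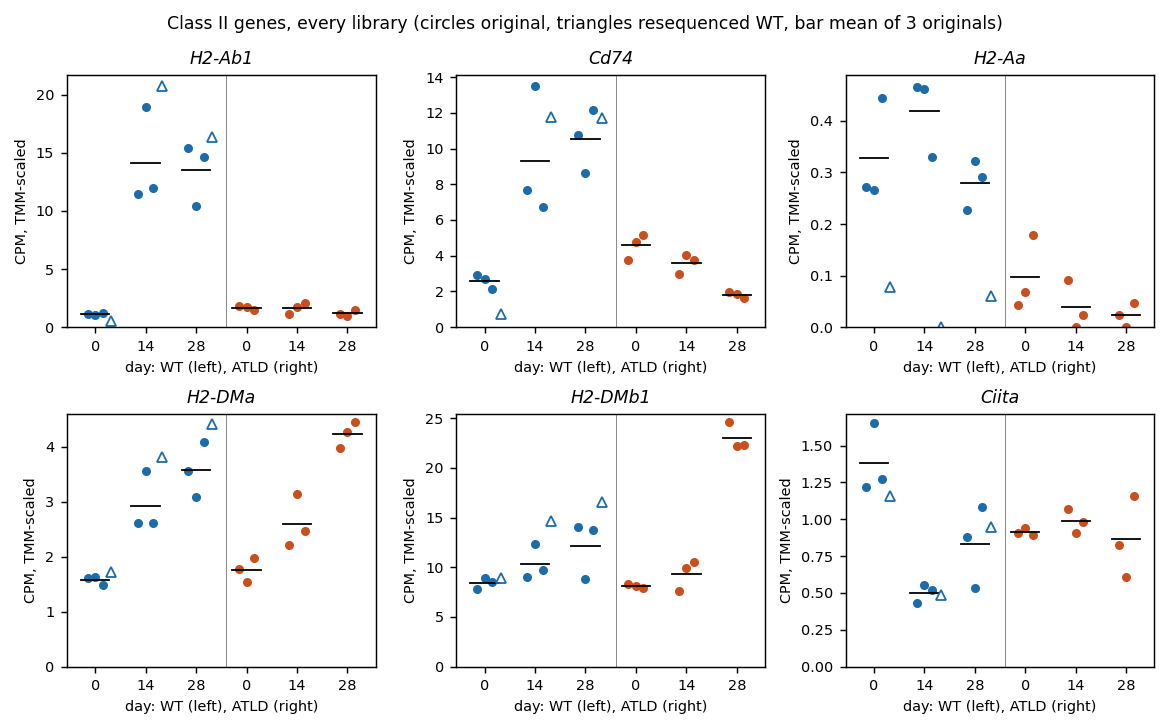
Level of 6 class II genes in every library. The vertical axis of each panel is CPM after TMM scaling and the horizontal axis the day in WT (left, blue) and ATLD (right, orange). Circles are original libraries, triangles resequenced WT runs and bars the mean of 3 originals. H2-Ab1 and Cd74 rose in the original and the resequenced WT runs, while H2-Aa was at 0 to 0.0787 CPM in the resequenced runs and below 0.5 CPM in all libraries.

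H2-Aa (ENSMUSG00000036594), the alpha chain that pairs with H2-Ab1, was at 0.273, 0.266 and 0.445 CPM in WT at day 0, 0.467, 0.462 and 0.331 CPM at day 14 and 0.226, 0.322 and 0.292 CPM at day 28. The resequenced runs held 0.0787 CPM, 0 CPM and 0.0604 CPM, from 4, 0 and 3 counts, and 0 counts at day 14 allow up to 0.0581 CPM by counting error alone. In ATLD H2-Aa was at 0.0432, 0.0689 and 0.179 CPM, 0.0908, 0 and 0.0246 CPM and 0.023, 0 and 0.0473 CPM. The original runs of the same WT cultures, replicate 1 of each day, held 13, 26 and 10 counts. The higher values were thus in the original WT runs, where Sftpc and Lyz2 were also found. Whether the H2-Aa counts share a source with those reads was not tested. H2-Aa passed no comparison. H2-Eb1, the beta chain of I-E, had means of 0.478 ± 0.163, 0.627 ± 0.137 and 0.494 ± 0.103 CPM in WT. ATLD means of H2-Eb1 were 0.386 ± 0.102, 0.494 ± 0.0412 and 0.845 ± 0.203 CPM, with 0.197 to 0.383 CPM in the resequenced runs. It rose in ATLD at day 28 (1.13 ± 0.28, adjusted p = 0.0061) and was higher there than in WT (1.56 ± 0.33, adjusted p = 4.80e-04), at levels below 1.1 CPM.

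Cd74, the invariant chain, was at 2.9, 2.72 and 2.12 CPM in WT at day 0, 7.68, 13.5 and 6.74 CPM at day 14 and 10.8, 8.63 and 12.1 CPM at day 28. The resequenced runs held 0.728 CPM, 11.8 CPM and 11.7 CPM. Both kinds of run rose, from a lower start in the resequenced run. In ATLD Cd74 was at 3.78, 4.8 and 5.14 CPM, 2.97, 4.05 and 3.74 CPM and 1.95, 1.85 and 1.63 CPM, falling to day 28 without overlap. The WT change was 1.89 ± 0.23 (adjusted p = 6.79e-06) and 2.06 ± 0.24 (adjusted p = 3.06e-06), and the ATLD change -0.37 ± 0.23 (adjusted p = 0.389) at day 14 and -1.33 ± 0.24 (adjusted p = 4.45e-04) at day 28. The genotypes' changes differed by -2.26 ± 0.33 (adjusted p = 5.51e-05) and -3.40 ± 0.34 (adjusted p = 6.44e-07). Between the genotypes Cd74 was higher in ATLD at day 0 (1.26 ± 0.39, adjusted p = 0.0104) and lower at day 14 (-1.43 ± 0.35, adjusted p = 0.00153) and day 28 (-2.50 ± 0.37, adjusted p = 9.92e-06). At day 0 this difference was 2.66 within the second batch, against its lone WT library of that day.

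The peptide exchange genes rose in both genotypes. H2-DMa was at 1.61, 1.62 and 1.48 CPM in WT at day 0, 2.6, 3.55 and 2.6 CPM at day 14 and 3.55, 3.08 and 4.09 CPM at day 28. In ATLD H2-DMa was at 1.77, 1.54 and 1.97 CPM, 2.2, 3.14 and 2.46 CPM and 3.97, 4.26 and 4.45 CPM. The day 28 libraries were above the day 0 libraries in both genotypes, with changes of 1.22 ± 0.17 (adjusted p = 3.55e-05) in WT and 1.26 ± 0.17 (adjusted p = 2.53e-05) in ATLD. H2-DMb1, its partner chain, was at 7.78, 8.95 and 8.54 CPM, 8.97, 12.3 and 9.68 CPM and 14, 8.77 and 13.7 CPM in WT. In ATLD H2-DMb1 was at 8.28, 8.1 and 7.96 CPM, 7.61, 9.93 and 10.5 CPM and 24.6, 22.2 and 22.3 CPM. ATLD at day 28 stood above all other libraries. The change at day 28 was 0.57 ± 0.17 (adjusted p = 0.0199) in WT and 1.51 ± 0.17 (adjusted p = 3.90e-06) in ATLD, and these differed by 0.94 ± 0.24 (adjusted p = 0.00648). The WT call was lost without WT day 0 replicate 1 (adjusted p = 0.0804) or 3 (adjusted p = 0.0541) or WT day 28 replicate 1 (adjusted p = 0.102) or 3 (adjusted p = 0.0937). Between the genotypes H2-DMb1 was lower in ATLD at day 14 (-0.62 ± 0.18, adjusted p = 0.00643) and higher at day 28 (0.49 ± 0.18, adjusted p = 0.0244, lost without ATLD day 28 replicate 1, adjusted p = 0.0701), and H2-DMa was lower at day 14 (-0.55 ± 0.17, adjusted p = 0.00956). Without the batch term the day 14 differences were -0.21 (adjusted p = 0.261) for H2-DMb1 and -0.23 (adjusted p = 0.215) for H2-DMa.

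Ciita, the coactivator of class II, was at 1.22, 1.66 and 1.27 CPM in WT at day 0, 0.431, 0.554 and 0.517 CPM at day 14 and 0.883, 0.536 and 1.08 CPM at day 28, with 1.16 CPM, 0.484 CPM and 0.947 CPM in the resequenced runs. All day 14 libraries were below all day 0 libraries in both kinds of run, and Ciita fell (-1.42 ± 0.26, adjusted p = 3.53e-04) on the day at which H2-Ab1 and Cd74 were up. At day 28 the change was -0.66 ± 0.24 (adjusted p = 0.0584). In ATLD Ciita was at 0.908, 0.941 and 0.894 CPM, 1.07, 0.907 and 0.985 CPM and 0.827, 0.609 and 1.16 CPM, overlapping between days, and the genotypes' changes at day 14 differed by 1.51 ± 0.36 (adjusted p = 0.00487). At day 14 Ciita was higher in ATLD than in WT (0.95 ± 0.28, adjusted p = 0.00577). Ifi30 had means of 35.5 ± 3.53, 32.3 ± 10.6 and 39.4 ± 8.46 CPM in WT. ATLD means of Ifi30 were 65.6 ± 9.16, 76.8 ± 10.6 and 58.1 ± 6.29 CPM. It was higher in ATLD at day 0 (0.55 ± 0.21, adjusted p = 0.0348) and day 14 (0.80 ± 0.21, adjusted p = 0.00272), and the day 0 call was lost without WT day 0 replicate 1 (adjusted p = 0.0578) or ATLD day 0 replicate 2 (adjusted p = 0.057) or 3 (adjusted p = 0.121).

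In WT H2-K1 and H2-D1 did not pass the test of days while H2-Ab1 and Cd74 rose. In ATLD B2m, H2-K1 and H2-D1 stood above WT at each day while H2-Ab1 and Cd74 stood below WT at day 14 and day 28. The ratio of H2-Ab1 to Cd74 in RPKM was 0.30 ± 0.0748, 1.02 ± 0.128 and 0.841 ± 0.0858 in WT and 0.248 ± 0.0587, 0.299 ± 0.0571 and 0.448 ± 0.138 in ATLD at the 3 days. Markers of cells that carry class II moved as follows. The sum of 11 macrophage genes was 7.8 to 13.7 CPM in WT at day 0, 8.35 to 8.76 at day 14 and 9.03 to 13.0 at day 28, 2.5 to 2.92 in the resequenced runs and 3.06 to 3.84 in ATLD. The sum of 6 dendritic cell genes was 2.58 to 3.58, 0.554 to 1.14 and 0.815 to 1.66 CPM in WT at the 3 days. It was 0.677 to 2.48 CPM in the resequenced runs and 5.37 to 7.61 CPM in ATLD. Most of the ATLD sum was Zbtb46, at 5.37 to 7.47 CPM there and at 0.277 to 2.98 CPM in the original WT libraries. In ATLD Itgax and Cd209a were at 0 in every library, and Flt3, Xcr1 and Ccr7 were at most 0.0698, 0.138 and 0.0985 CPM. The sum of 6 B cell genes was 0.231 to 0.751 CPM in the original WT libraries and 0 to 0.0698 CPM in ATLD. Ptprc, the general leukocyte gene, was at 0 to 0.161 CPM in the original WT libraries and at 0 in all others. The 10 lung genes summed to 9.68 to 19.5 CPM in the original WT libraries, 2.54 to 4.46 in the resequenced runs and 6.79 to 18.1 in ATLD, where Sftpc was at most 0.152. Most of that ATLD sum was Sftpd, at 6.31 to 17.1 CPM there and at 0.209 to 2.25 CPM in the original WT libraries. The part of lung and immune reads, whatever their source, in the class II values of the original WT runs was not tested. In bulk RNA, fewer cells of a type and less RNA per cell cannot be told apart.

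Interferon signalling, which drives class I and class II genes, had 7 of 16 genes higher and 1 lower in ATLD at day 0, 7 and 4 at day 14 and 8 and 3 at day 28. Of all genes tested, 26.1% were higher and 29.5% lower at day 0, 30.1% and 35.0% at day 14 and 29.3% and 34.9% at day 28. Irf7, a factor of the interferon response, was higher in ATLD by 2.04 ± 0.30 (adjusted p = 1.87e-05) at day 0, 3.24 ± 0.30 (adjusted p = 3.39e-08) at day 14 and 2.13 ± 0.29 (adjusted p = 4.52e-06) at day 28. Irf8, a factor of myeloid and B cells, was lower, at -2.20 ± 0.70 (adjusted p = 0.00993) at day 14 and -2.16 ± 0.69 (adjusted p = 0.0107) at day 28, and so was Socs3, an inhibitor of cytokine signals, at -2.13 ± 0.20 (adjusted p = 3.10e-08) and -2.11 ± 0.20 (adjusted p = 4.89e-08). With time in WT 3 of the 16 rose and 3 fell at day 14, and 5 and 2 at day 28, where 15.2% and 15.1% of all genes were called at day 14 and 12.3% and 12.4% at day 28. In ATLD 4 rose and 1 fell at each of these days, against 5.18% and 6.49% of all genes at day 14 and 14.1% and 15.7% at day 28. In WT Socs1, another such inhibitor, rose by 1.26 ± 0.39 (adjusted p = 0.0204) and 1.16 ± 0.39 (adjusted p = 0.0397), and Ifnar2, a receptor chain for type I interferon, changed by -0.89 ± 0.10 (adjusted p = 1.60e-06) and -0.73 ± 0.10 (adjusted p = 1.84e-05). In ATLD Irf7 rose by 1.10 ± 0.27 (adjusted p = 0.00999) at day 14.

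Of the 7 X and Y box factors, which bind the promoters of both classes, 0 were higher and 1 lower in ATLD at day 0, 1 and 2 at day 14 and 3 and 3 at day 28. Over all genes, 26.1% were higher and 29.5% lower at day 0, 30.1% and 35.0% at day 14 and 29.3% and 34.9% at day 28. Rfxank was higher at day 14 (0.55 ± 0.19, adjusted p = 0.0167) and day 28 (0.56 ± 0.19, adjusted p = 0.0161), and Rfxap (0.61 ± 0.12, adjusted p = 2.36e-04) and Nfyc (0.39 ± 0.14, adjusted p = 0.018) at day 28. Rfx5 was lower in ATLD at all days, at -0.24 ± 0.09 (adjusted p = 0.0258), -0.37 ± 0.09 (adjusted p = 0.00122) and -0.64 ± 0.09 (adjusted p = 5.60e-06), Creb1 at day 14 (-0.80 ± 0.18, adjusted p = 7.05e-04) and day 28 (-0.90 ± 0.18, adjusted p = 2.13e-04), and Nfya at day 28 (-0.27 ± 0.10, adjusted p = 0.0237). When the 2 changes to day 28 were compared, Rfxank passed at 0.74 ± 0.25 (adjusted p = 0.034) and Rfx5 at -0.38 ± 0.12 (adjusted p = 0.0293). Of 7 tested genes of other MHC region class I chains, 4 were higher and 1 lower in ATLD at day 0, 6 and 1 at day 14 and 5 and 1 at day 28, beside the same shares of all genes as for the interferon genes. H2-Bl was higher in ATLD by 5.29 ± 0.70 (adjusted p = 2.81e-06) at day 14 and H2-Q2 by 3.04 ± 0.19 (adjusted p = 1.13e-10). H2-Q2 fell in WT by day 14 (-2.27 ± 0.18, adjusted p = 2.35e-08). Among 7 tested genes of the lysosomal class II pathway, the cathepsins Ctsd and Ctsl rose in both genotypes. Ctsd rose by 0.85 ± 0.14 (adjusted p = 1.05e-04) in WT and 1.04 ± 0.14 (adjusted p = 1.69e-05) in ATLD at day 28, and Ctsl by 0.40 ± 0.12 (adjusted p = 0.0202) and 0.72 ± 0.12 (adjusted p = 2.00e-04). March8, a ubiquitin ligase, fell in WT (-0.56 ± 0.10, adjusted p = 3.19e-04), and the protease Lgmn rose in ATLD (0.77 ± 0.13, adjusted p = 2.80e-04).

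Costimulatory and checkpoint genes, of which 5 were tested, differed too. Cd40, a receptor that licenses antigen presentation, rose in ATLD at day 14 (3.52 ± 0.30, adjusted p = 8.56e-07) and was above WT there (3.91 ± 0.35, adjusted p = 1.97e-08). Cd274, the checkpoint ligand PD-L1, was higher in ATLD than in WT at day 14 (1.46 ± 0.31, adjusted p = 4.13e-04) and fell in ATLD from day 14 to day 28 (-1.17 ± 0.27, adjusted p = 0.00596), as did Cd40 (-1.32 ± 0.26, adjusted p = 0.00175). Cd80, a costimulatory ligand, rose in WT by 1.88 ± 0.21 (adjusted p = 1.95e-06) at day 14 and was lower in ATLD at day 14 (-1.41 ± 0.23, adjusted p = 3.74e-05) and day 28 (-1.76 ± 0.24, adjusted p = 5.64e-06). Among the ligands of the NK cell receptor NKG2D, 2 were tested, and Raet1e was higher in ATLD at day 0, day 14 and day 28 (4.54 ± 0.52, 5.94 ± 0.52 and 4.05 ± 0.53) while Ulbp1 was lower (-0.89 ± 0.22, -1.01 ± 0.23 and -2.10 ± 0.24), all past the test. Of the 5 other peptidases that feed or destroy class I peptides, Blmh was higher in ATLD at day 0 (0.88 ± 0.10, adjusted p = 1.18e-06) and Lnpep lower (-1.28 ± 0.35, adjusted p = 0.00436). With time Npepps, a cytosolic aminopeptidase, rose in WT at day 14 (0.56 ± 0.10, adjusted p = 3.68e-04).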

How the data were processed

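RNA of mouse mammary organoids was extracted with miRNeasy columns and made into TruSeq Stranded mRNA libraries, per the labels' protocols. The authors deposited raw counts per gene, and the submitters' processing notes name featureCounts, DESeq2 and mm10. Which aligner, strand setting and gene models were used is not given in the sources used here. Gene IDs were matched to GENCODE vM21, and all 55536 matched in ID, start and end. Counts were tested with the edgeR 4.0.16 quasi-likelihood test (R 4.3.3, TMM scaling, filterByExpr with a minimum count of 10 and a total of 15), with Benjamini-Hochberg adjustment over all genes and calls at 0.05. The 18 original libraries gave the time and genotype by time contrasts (18684 genes), and all 21 libraries with a batch term gave ATLD against WT (18844 genes). The latter counts each resequenced run as a further WT library, although its culture is that of replicate 1. With culture as a random block in limma, 19, 27 and 22 members were called at day 0, day 14 and day 28, against 19, 26 and 20. Over all genes that fit called 10802, 12543 and 12346. The fits were also run on simulated counts, with the same spread for all genes, no GC trend and no shared culture. Such counts cannot show how the fits handle these traits of the libraries. Alternatives used DESeq2 1.42.0, limma 3.58.1, other scaling, filters, libraries and a GC offset. RPKM used the deposited gene lengths. Values in every library are given for 10 members fixed by name and for others called in 4 or more comparisons or with group means over 4 times apart. Pathway genes were named by the largest changes called in their list. The values of 1 gene of these lists are not reported here. The members and lists were chosen with earlier results of these data known.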

Additional observations from a re-analysis of the deposited data

Results flagged for a closer look

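The change from day 0 differed between ATLD and WT for 5 members at day 14 and 17 at day 28, by the interaction term of edgeR with an adjusted p under 0.05. All values are log2, ATLD change minus WT change. At day 14 they were -3.70 for H2-Ab1 and -2.26 for Cd74 in class II, against 1.51 for Ciita, and 0.58 for Calr and 0.96 for Cd1d1 in class I. At day 28 class II gave -4.05 for H2-Ab1, -3.40 for Cd74 and 0.94 for H2-DMb1. The class I light chain B2m was at -0.66, and the heavy chains were at -0.80 for H2-Q4, -1.27 for H2-Q6 and -2.03 for H2-Q7. Peptide supply gave -1.49 for Psmb9, -0.62 for Psme2 and -1.31 for Erap1, and transport and loading -1.68 for Tap1, -0.63 for Tapbpl, -0.52 for Canx and 0.39 for Calr. The coactivator Nlrc5 was at -2.24, and the class I-like genes were at 0.69 for Mr1 and 1.16 for Cd1d1.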

How the results depend on the processing

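Of 149 calls of a member in a comparison, 118 held in every fit without 1 original library. The other 31 were lost in at least 1 such fit. The resequenced WT runs, on which the batch term of the ATLD against WT tests rests, were not left out singly. All 149 kept direction and call under DESeq2. Over all settings, 2152 of 2334 values kept both, 181 lost the call, and 1 reversed: Mr1 in WT at day 14 was at -0.012 without the 3 WT libraries with low counts of GC-rich genes, a setting chosen after the data were seen. With the GC offset, the members called went from 12 to 19 in WT at day 14, from 5 to 9 in ATLD at day 14, from 17 to 26 in ATLD from day 14 to day 28, and from 5 to 10 for genotype by time at day 14. Within the second batch alone, which has 1 WT library a day and tested 33 members, they were 4 in WT at day 14, 5 in WT at day 28, and 3 and 10 for genotype by time at day 14 and day 28, against 12, 12, 5 and 17. Leaving out 1 library gave 7 to 14 in WT at day 14, 7 to 16 in WT at day 28, 0 to 11 in WT between day 14 and day 28, and 5 to 9 for genotype by time at day 14. The 11 and the 9 came without WT day 14 replicate 2. Over all genes, the second batch alone called 2389, 2061 and 1 genes in WT at day 14, at day 28 and between them, against 5666, 4621 and 169, and 2255 and 3104 for genotype by time, against 3988 and 5134. The GC offset called 3611 and 4957 genes in ATLD at day 14 and from day 14 to day 28, against 2180 and 3232, and 302 in WT from day 14 to day 28. In WT at day 14 it called 7148 genes, against 5666, and for genotype by time at day 14 5310, against 3988. Correlations of same-numbered replicates, each taken relative to its group mean, ran from -0.71 to 0.33. The GC trend of single libraries also enters these values, so they cannot decide whether same-numbered replicates share an origin. With the replicate block the members called were 9, 11, 0, 4, 16 and 15 in the time comparisons, in the order WT then ATLD. They were 17, 24 and 18 between the genotypes at day 0, day 14 and day 28, and 5 and 15 for genotype by time. Over all genes that fit called, in the same order, 5147, 4237, 100, 1871, 4968 and 2649 genes with time. It called 9156, 11276 and 11056 between the genotypes and 3563 and 4636 for genotype by time. The depth limits H2-Aa, at 0 to 26 counts a library.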
